A study of Homo sapiens with 2 samples.

Results

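The genes described here are 10 markers used to recognise ovarian carcinoma or mesothelial cells, namely WT1, MUC16, MUC1, WFDC2, MSLN, FOLR1, CALB2, UPK3B, CD24 and OVGP1. They were listed by symbol, with earlier results of these data known. In the RNA-Seq table, which holds 57736 Ensembl genes, 9 of the 10 were matched by identifier through the GENCODE annotation of GRCh37. CD24 was not matched and was not analysed here. Of the 9 measured markers, 5 had at least 10 reads in both libraries together (MSLN, FOLR1, CALB2, MUC1 and OVGP1), and WT1, MUC16, WFDC2 and UPK3B had fewer. The study sequenced RNA from the human ovarian cancer cell line A1847, as parental control cells with wild type CARM1 and as cells whose CARM1 was knocked out with a lentiviral CRISPR guide (CARM1 KO). Both were grown in the same serum-containing medium. CARM1 is an arginine methyltransferase that acts on chromatin proteins and transcriptional coactivators. The CARM1 KO cells were 1 clone and each group was 1 library, so the loss of CARM1 and the choice of that clone from the parental cells cannot be told apart.

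Several of these markers are linked in ovarian tumours. MUC16 is the membrane mucin that carries the serum antigen CA125, and mesothelin, encoded by MSLN, is a surface protein of mesothelium that binds it. WFDC2 encodes HE4, a secreted serum marker, and FOLR1 encodes the folate receptor alpha that is the target of an antibody-drug conjugate. WT1 is a zinc-finger transcription factor whose nuclear staining marks serous ovarian carcinoma and mesothelium, and CALB2 encodes calretinin, a calcium-binding protein of mesothelial cells. UPK3B is a uroplakin of mesothelium and urothelium, MUC1 is an epithelial membrane mucin, and OVGP1 is a glycoprotein secreted by the oviduct.

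Of the 10 markers, 6 had promoter windows in the RefSeq table for GRCh38.p14, which run from 250 bases before to 50 bases after a transcript start. They were WT1, MUC16, MUC1, WFDC2, UPK3B and CD24. MSLN, FOLR1, CALB2 and OVGP1 were not among them. The windows of MUC1, WFDC2 and MUC16, the ovarian serum and surface antigens that were low or at 0 reads in these cells, are shown 5′ to 3′ on the strand of the gene, with 1 window per gene. MUC1 and MUC16 have 2 windows each in the table and WFDC2 has 1. Capitals mark the motifs TATAAA and GGGCGG on either strand (TTTATA and CCGCCC on the other).
MUC1 (chr1:155192860-155193159, minus strand): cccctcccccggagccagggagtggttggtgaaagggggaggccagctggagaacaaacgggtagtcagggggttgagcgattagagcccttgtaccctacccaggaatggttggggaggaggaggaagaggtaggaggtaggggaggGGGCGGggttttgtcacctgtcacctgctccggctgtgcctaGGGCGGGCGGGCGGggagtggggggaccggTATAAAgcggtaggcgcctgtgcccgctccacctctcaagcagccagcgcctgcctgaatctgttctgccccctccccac
WFDC2 (chr20:45469503-45469802, plus strand): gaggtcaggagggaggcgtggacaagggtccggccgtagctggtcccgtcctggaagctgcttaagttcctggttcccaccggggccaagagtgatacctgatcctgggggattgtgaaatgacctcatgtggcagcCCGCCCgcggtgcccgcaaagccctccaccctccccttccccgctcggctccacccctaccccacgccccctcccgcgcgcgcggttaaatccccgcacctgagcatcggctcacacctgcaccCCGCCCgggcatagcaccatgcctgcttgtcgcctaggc
MUC16 (chr19:9065702-9066001, minus strand): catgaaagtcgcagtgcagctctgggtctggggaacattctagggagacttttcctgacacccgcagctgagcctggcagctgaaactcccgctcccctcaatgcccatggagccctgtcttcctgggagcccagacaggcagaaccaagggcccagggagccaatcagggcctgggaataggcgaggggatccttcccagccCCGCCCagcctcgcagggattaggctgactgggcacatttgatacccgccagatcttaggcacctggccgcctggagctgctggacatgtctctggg
The MUC1 window held 1 TATAAA, which began 30 bases before the start, and 4 GGGCGG, of which 3 overlap one another. WFDC2 held 2 GGGCGG and the MUC16 window shown held 1. The other MUC16 window (chr19:9010360-9010659) held 0 GGGCGG and 7 CpG dinucleotides, and the other MUC1 window held the same motifs. Of the 35116 windows in the table, 11.5% held TATAAA and 45.0% held GGGCGG. The number of CpG dinucleotides was 13 in MUC1, 22 in WFDC2 and 8 in MUC16 in the windows shown, against a median of 14 over all windows. The sequences GCGTGGGAG and GCGGGGGCG, searched as letters bound by WT1 and the related EGR factors, had 0 matches on either strand in any window of the 6 markers. They stood in 0.689% and 5.07% of all windows.

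The parental library held 30741953 reads and the CARM1 KO library 32300391 reads. CARM1 itself had 975 parental reads and 380 CARM1 KO reads, which put the CARM1 KO level 2.65-fold lower (95% interval 2.35 to 2.99). This is a level of RNA. The study examined CARM1 protein in the parental and knockout cells by immunoblot, which the counts do not measure. Fold changes are ratios of the counts after TMM scaling, and their exact binomial intervals cover counting error only. With 1 library per group no difference has a replicate check, and no test of the conditions was possible. A gene is therefore described as higher or lower when its fold change exceeded 3, the fold limit of the study, and its reads in the libraries summed to at least 10. The study also required a false discovery rate (FDR) under 0.05, which the rule used here leaves out. By this rule 12.7% of the 18563 genes with enough reads were higher in CARM1 KO cells and 11.8% were lower. Because whole cultures were sequenced, fewer cells expressing a gene and less RNA per cell cannot be told apart.

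In these cells 3 of the 5 markers with enough reads were higher in CARM1 KO cells, namely MSLN, FOLR1 and CALB2, and 0 were lower. The other two, MUC1 and OVGP1, stayed within 3-fold. The median log2 fold change of the 5 markers was 2.12, and that of all genes with enough reads was -0.04. WT1 (8 parental and 1 CARM1 KO reads), WFDC2 (0 and 5), MUC16 (0 and 1) and UPK3B (5 and 3) had too few reads for a call. Under an assumed coefficient of variation of 0.4 between cultures, edgeR's exact test called none of MSLN, FOLR1 and CALB2, while at 0.12 it called all of these.

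**Figure D1:**
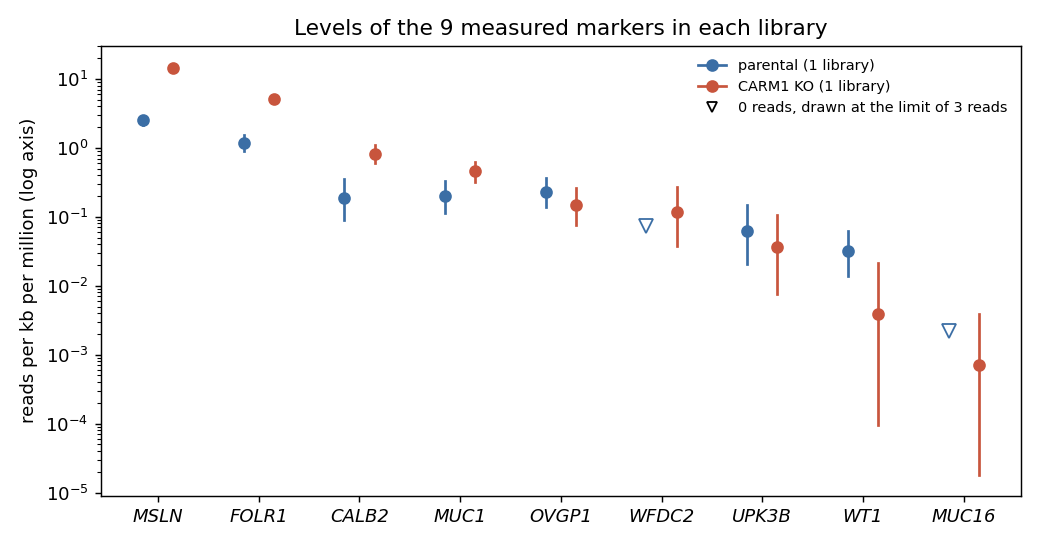
Levels of the 9 measured markers in the parental and CARM1 KO libraries, in RPKM (reads divided by exon length and scaled library size) on a log axis. Points are single libraries, bars are 95% counting intervals, and open triangles stand at the limit of 3 reads for a count of 0. MSLN and FOLR1 lie highest in both libraries and MUC16 lies lowest in CARM1 KO cells.

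MSLN was the most abundant marker in both libraries. It occupies the plus strand of chromosome 16 between 810734 and 818865 in GRCh37. MSLN had 201 parental reads and 1188 CARM1 KO reads. The CARM1 KO level was 5.72-fold higher (95% interval 4.92 to 6.68), with the whole interval past 3-fold. Its level per length went from 2.50 to 14.3 RPKM, the reads divided by exon length and by scaled library size. In parental cells 60.1% of protein-coding genes lay below MSLN on this scale, and in CARM1 KO cells 86.1% did. MSLN made up 63.6% of the parental marker reads and 76.4% of the CARM1 KO marker reads. Its relatives MSLNL, OTOA and STRC, which encode mesothelin-like and stereocilin-type proteins, had 0 or 1 read in each library.

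MUC16, the mucin that binds mesothelin, had 0 parental reads and 1 CARM1 KO read, so it has no fold change. Its annotated exons cover 44165 bases, and a count of 0 in the parental library allows a level of up to 0.00219 RPKM. MUC16 occupies the minus strand of chromosome 19 between 8959520 and 9121066. The cells that had a 5.72-fold higher MSLN level thus had at most 1 read of its partner in either library.

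FOLR1 occupies the plus strand of chromosome 11 between 71900602 and 71907367. It had 59 parental reads and 264 CARM1 KO reads. The level in CARM1 KO cells was 4.33-fold higher (95% interval 3.26 to 5.85), again with the whole interval past 3-fold. Per length, FOLR1 went from 1.19 to 5.15 RPKM, the next level after MSLN in each library. The other folate receptors were near 0, with 0 reads and 1 read for FOLR2 and 0 and 6 reads for FOLR3.

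In the wider folate pathway the differences were smaller than that of FOLR1. Of 13 listed genes of folate uptake and use, 11 had enough reads and 0 were higher or lower, with a median log2 fold change of -0.06. SLC19A1, the reduced folate carrier, had 331 parental reads and 253 CARM1 KO reads, a 1.35-fold lower level (95% interval 1.14 to 1.60). SLC46A1, the proton-coupled folate transporter, had 327 and 288 reads, a 1.17-fold lower level (95% interval 1.00 to 1.38). The most abundant was MTHFD1, a trifunctional enzyme of one-carbon metabolism, with 7411 and 12433 reads and a 1.62-fold higher level (95% interval 1.58 to 1.67). SLC19A1 and SLC46A1 were chosen after their values were seen.

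CALB2 occupies the plus strand of chromosome 16 between 71392616 and 71424339. It had 10 parental reads and 45 CARM1 KO reads. Its CARM1 KO level was 4.36-fold higher, with a 95% interval of 2.16 to 9.70 that reached below 3-fold. Per length it went from 0.190 to 0.826 RPKM, so calretinin RNA stayed low in both libraries. Its relative CALB1, encoding calbindin, had 21 and 16 reads, a 1.36-fold lower level (95% interval 0.67 to 2.78), and PVALB and SCGN had 0 reads in both.

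MUC1 occupies the minus strand of chromosome 1 between 155158300 and 155162707 and had 15 parental reads and 35 CARM1 KO reads. This was a 2.26-fold higher level (95% interval 1.20 to 4.45), under the 3-fold limit. RSEM divides reads between similar sequences, and the coding repeats of MUC1 and MUC16 add to the uncertainty of their low counts. OVGP1 (minus strand of the same chromosome, 111956941 to 111970357) had 18 and 12 reads. The CARM1 KO level was 1.55-fold lower with an interval of 0.71 to 3.53 that included no difference.

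**Figure D2:**
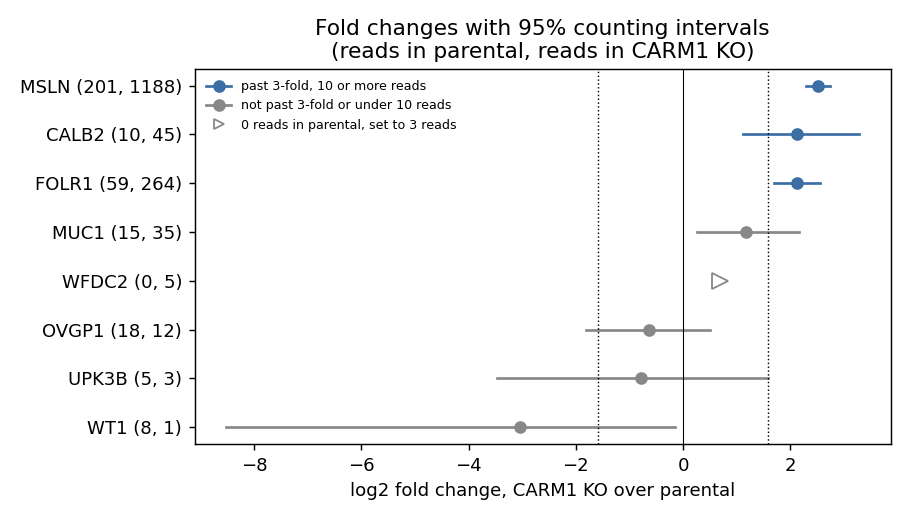
Log2 fold changes of CARM1 KO over parental cells for the 8 markers with a fold change, with 95% counting intervals as bars and the reads of each library in brackets. Dotted lines mark 3-fold in either direction. MSLN and FOLR1 are the markers whose whole interval lies past the upper line, and WFDC2 is drawn as an open triangle with its 0 parental reads set to 3.

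WT1 had 8 parental reads and 1 CARM1 KO read, below the minimum of 10 reads for a call. The ratio was 8.26-fold lower with a 95% interval of 1.11 to 367. WT1 occupies the minus strand of chromosome 11 between 32409321 and 32457110. The antisense gene WT1-AS, which overlaps 47 bases at the 5′ end of WT1, had 0 and 3 reads. Whether the authors' counting used strand is not given in the sources used here, so reads within that overlap cannot be told apart. WFDC2 (plus strand of chromosome 20, 44098393 to 44110172) had 0 parental reads and 5 CARM1 KO reads. Against the 3 reads set for a count of 0, the ratio of WFDC2 was 1.61. Its exact counting interval began at 0.89 and thus included no difference. UPK3B (plus strand of chromosome 7, 76139842 to 76145839) had 5 and 3 reads, and shares sequence with copies named UPK3BL. At these depths no difference in UPK3B was detectable, with an interval of 0.33 to 11.1 for a 1.72-fold lower level.

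Levels per exon length gave the markers an order in each library. In parental cells OVGP1 (0.230), MUC1 (0.201) and CALB2 (0.190 RPKM) followed FOLR1, and their counting intervals overlapped, so they are not ordered. In CARM1 KO cells CALB2 (0.826) came after FOLR1, with an interval of 0.603 to 1.11 that overlapped that of MUC1, 0.317 to 0.633. OVGP1 (0.149) and WFDC2 (0.117) overlapped as well. Counting intervals of MSLN and FOLR1 did not overlap in either library. The median protein-coding gene stood at 1.01 RPKM in the parental library and 1.06 RPKM in the CARM1 KO library. By their point values FOLR1 and MSLN lay above that median in each library and the other 7 markers below it. The intervals of FOLR1 in parental cells (0.905 to 1.53 RPKM) and of CALB2 in CARM1 KO cells included the median.

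The genes beside MSLN stood near equal levels in the libraries. Its 6 nearest protein-coding genes with at least 10 reads, 3 on either side and within 84769 bp, had log2 fold changes from -0.01 to 0.39. MSLNL, with 0 reads and 1 read, lies between MSLN and RPUSD1 and was too low to count among them. The nearest with enough reads were CIAO3, with 420 and 570 reads, and RPUSD1, with 546 and 608 reads. FOLR1 lies between the low FOLR3 and FOLR2, and the nearest genes with enough reads were ANAPC15, 1.17-fold higher (95% interval 1.06 to 1.28), and INPPL1, 1.27-fold higher (95% interval 1.20 to 1.34). Among the 6 neighbours of FOLR1, PDE2A was past 3-fold, with 23 and 80 reads at a distance of 379818 bp. Its 95% interval, 2.10 to 5.61, reached below 3-fold. Around CALB2 all of the 6 neighbours were on the higher side, with log2 fold changes from 0.34 to 2.43, and 3 were past 3-fold. These were HYDIN (71 and 225 reads), ZNF19 (45 and 142 reads) and the gene ENSG00000261611 (14 and 78 reads). The last overlaps ZNF23 and ZNF19 on the same strand and may share their reads. HYDIN was 3.07-fold higher (95% interval 2.34 to 4.07) and ZNF19 3.06-fold (2.17 to 4.37), both with intervals that reached below 3-fold. CMTR2 and ZNF23, the nearest of the 6 neighbours to CALB2, were 1.41-fold and 1.80-fold higher. The neighbours of MUC1 ranged from -0.87 to 1.50, the latter for TRIM46, whose end lies 853 bp from MUC1 and which had 24 and 70 reads. Over the 54 neighbours of the 9 markers, 11 were higher and 3 were lower past 3-fold, with a median log2 fold change of 0.36. Among the 18 that were nearest on either side, 0 were higher and 3 were lower, namely EPPIN, POMZP3 and PIFO, with a median of 0.16. Of the 14140 protein-coding genes with enough reads, 1786 were higher and 1309 were lower, with a median of 0.02. Of all genes with enough reads 12.7% were higher and 11.8% were lower. PDE2A, HYDIN, ZNF19 and ENSG00000261611 were chosen after their values were seen.

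**Figure D3:**
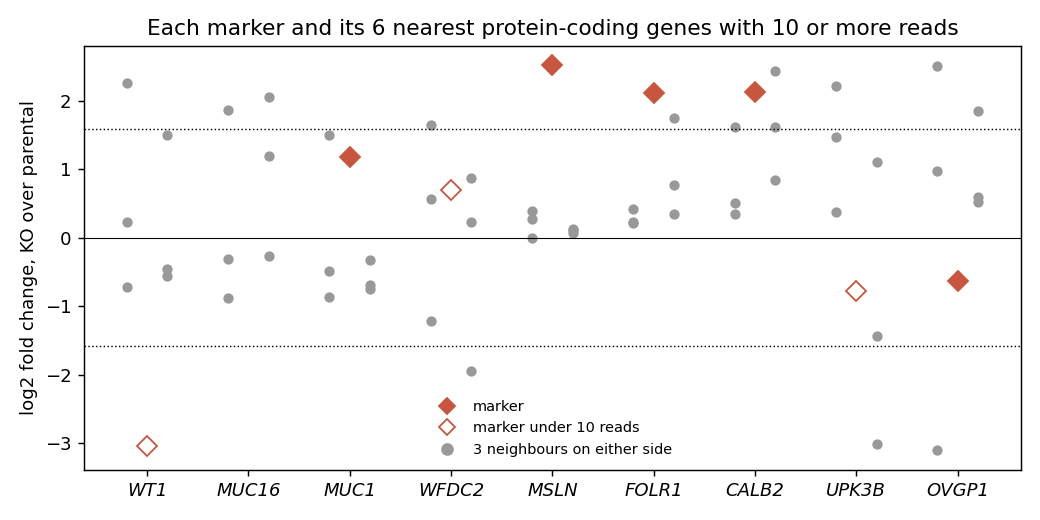
Log2 fold change of each marker (diamonds, open where it had under 10 reads) and of its 6 nearest protein-coding genes with at least 10 reads (grey points, left and right of the marker as before and after it on the chromosome). MUC16 has no fold change. The neighbours of MSLN lie between -0.01 and 0.39 while MSLN lies at 2.52.

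Of 16 listed mucin genes other than MUC1 and MUC16, 8 had no read in either library and 3 had enough reads, of which 2 were lower and 0 were higher. MUC15, a membrane mucin, had 340 parental reads and 0 CARM1 KO reads, which against 3 reads is a 117-fold lower level, with an exact interval that began at 94.7. MUC19 had 10 and 0 reads, which against 3 reads is a 3.44-fold lower level, with an exact interval that began at 2.31, below 3-fold. CD164, a sialomucin, had 9018 and 6031 reads, a 1.54-fold lower level (95% interval 1.49 to 1.60). MUC19 and CD164 were chosen after their values were seen.

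Among 15 enzymes of mucin O-glycosylation, 14 had enough reads, 4 were higher and 1 was lower, with a median log2 fold change of 0.26. GALNT3, which starts O-glycans by adding N-acetylgalactosamine, had 1 parental read and 130 CARM1 KO reads, a ratio of 126 (95% interval 22.2 to 5010). GCNT1, which branches core O-glycans, had 100 and 883 reads and was 8.55-fold higher (95% interval 6.95 to 10.6). GALNT14 had 206 and 926 reads and was 4.35-fold higher. GALNT4 had 4229 and 358 reads and was 12.2-fold lower (95% interval 10.9 to 13.6). GALNT4 overlaps a readthrough gene with POC1B, which makes its count uncertain. GALNT5, with 1 and 35 reads, was the other enzyme that was higher and was chosen after its values were seen. The genes of this list past 3-fold thus went both ways.

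WFDC2 belongs to the WAP-domain protease inhibitors. Of 9 relatives listed, 3 had enough reads and 4 had no read in either library. SLPI, the secretory leukocyte protease inhibitor, had 21 parental reads and 161 CARM1 KO reads, a 7.42-fold higher level (95% interval 4.70 to 12.3). EPPIN, which was chosen after its values were seen and is also the nearest protein-coding gene with enough reads after WFDC2, had 15 and 4 reads and was 3.87-fold lower (95% interval 1.23 to 16.0). The uroplakin with most reads was UPK1B, with 24 and 44 reads and a 1.78-fold higher level (95% interval 1.06 to 3.05). The chitinase-like relatives of OVGP1 had at most 3 reads in either library, the most in CHIT1.

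WT1 partners and targets were measured although WT1 had 8 parental reads and 1 CARM1 KO read. Of 6 partners, 5 had enough reads and 1 was higher. This was BASP1, a WT1 corepressor, with 1160 and 3710 reads and a 3.10-fold higher level whose interval began at 2.90. Of 14 genes listed as WT1 targets, 10 had enough reads, 4 were higher and 2 were lower. SPRY1, an inhibitor of receptor tyrosine kinase signalling, had 1670 parental and 23 CARM1 KO reads and was 75.0-fold lower (95% interval 49.8 to 119). EGR1, a zinc-finger factor, had 152 and 17 reads and was 9.23-fold lower. PDGFA, VDR and PODXL were 4.57-fold, 3.81-fold and 3.68-fold higher, and NR0B1 had 6 and 34 reads. NR0B1 was chosen after its values were seen.

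Of 16 other ovarian tumour antigens, 9 had enough reads, and 4 of these were lower and 2 were higher in CARM1 KO cells. CRABP2, a retinoic acid binding protein, had 11354 parental reads and 126 CARM1 KO reads and was 93.1-fold lower (95% interval 78.1 to 112). CLDN6, a tight junction protein of fetal tissue and some carcinomas, had 133 and 2 reads, a 68.7-fold lower level (95% interval 18.6 to 573). L1CAM, a cell adhesion molecule, had 100 and 775 reads and was 7.50-fold higher (95% interval 6.09 to 9.34). CDH6 (46 and 1 reads), LYPD1 (23 and 3 reads) and SLC34A2 (2 and 8 reads) made up the rest of these counts and were chosen after their values were seen. The interval of SLC34A2, 0.77 to 37.4 for a 3.87-fold higher level, included no difference. Of the genes listed as receptors of CD24 or other anti-phagocytic signals, 2 of 4 with enough reads were lower. B2M, the light chain of MHC class I, had 5515 and 841 reads and was 6.77-fold lower (95% interval 6.30 to 7.29). SIGLEC10, the CD24 receptor on macrophages, had 9 and 2 reads, a 4.65-fold lower level whose interval of 0.96 to 44.2 included no difference, and was chosen after its values were seen. Over all 109 genes of the related lists, 61 had enough reads, of which 12 were higher and 12 were lower. By the same rule 12.7% of all genes with enough reads were higher and 11.8% were lower.

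**Figure D4:**
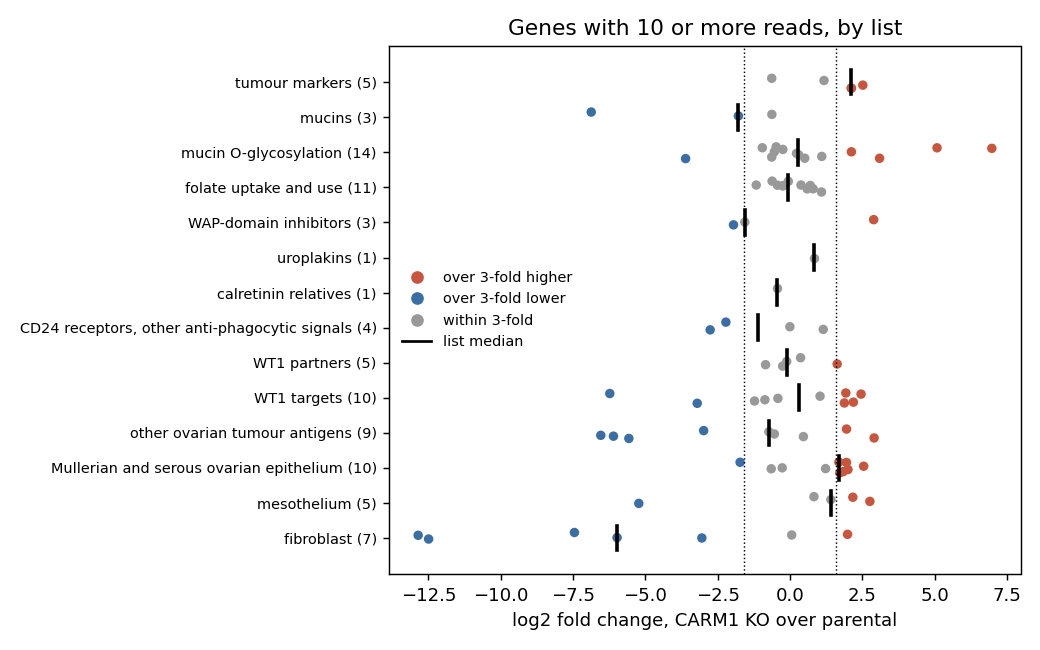
Log2 fold change of CARM1 KO over parental cells for each gene with at least 10 reads, by list, with the number of genes in brackets and the list median as a black bar. A gene with 0 reads in a library is drawn with that count set to 3. The folate list lies within the dotted 3-fold lines, and the fibroblast list has its median at -5.98.

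The labelled cell type was checked with marker lists. Of 14 Müllerian and serous epithelial markers, 10 had enough reads, 6 were higher in CARM1 KO cells and 1 was lower. The 6 were PAX8, PGR, EPCAM, KRT7, KRT8 and CLDN3, while KRT18 was 2.34-fold higher and stayed within 3-fold. CLDN3 had 0 and 10 reads, and against 3 reads it was 3.23-fold higher with an interval that began at 2.17. The interval of EPCAM began at 2.86, also below 3-fold. The summed level of the Müllerian and serous list went from 1427 to 4709 CPM (reads divided by TMM-scaled library size, with no division by length). The keratin genes KRT8 (567.6 and 2198 CPM), KRT18 (682.2 and 1600 CPM) and KRT7 (142.4 and 832.3 CPM) made up most of both sums. MECOM, the marker that was lower, had 16 and 5 reads, a 3.30-fold lower level (95% interval 1.16 to 11.5). PAX8, the lineage factor of Müllerian epithelium, had 311 and 1149 reads, while ESR1 and EMX2 had 0 reads in both. Of 12 mesothelial markers, 11 were matched and 5 had enough reads, of which 2 were higher and 1 was lower. Their list had a summed level of 28.7 and 105.6 CPM, of which BNC1 alone made up 22.5 and 101.4 CPM. LRRN4 had 7 and 49 reads and BNC1 698 and 3248 reads, whereas the podoplanin gene PDPN had 145 and 4 reads. ITLN1, THBD and GATA4, also on the mesothelial list, had 0 reads in both libraries. The 7 fibroblast markers moved with the groups as well. Of these, 5 were lower and 1 was higher in CARM1 KO cells, and their summed level went from 1035 to 21.5 CPM. COL1A2 (539.6 CPM) and PDGFRA (462.0 CPM) made up most of the parental sum and had 3 and 2 CARM1 KO reads. COL1A1, with 131 and 537 reads, was 3.97-fold higher and made up 16.8 CPM of the CARM1 KO sum. DCN was the fibroblast marker at 0 reads in CARM1 KO cells. Of 5 leukocyte markers, 2 were higher at counts of up to 13 reads, with a summed level of 0.838 and 1.12 CPM, and CD3E had 0 reads in both. The endothelial list summed to 0.355 and 0.375 CPM, with 0 reads of CDH5. The part of these cell type differences in the levels of MSLN, FOLR1 and CALB2 was not tested.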

How the data were processed

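RNA-Seq counts from 1 parental control and 1 CARM1 KO library of A1847 cells were used. Per the methods, bowtie2 alignment to hg19 was followed by RSEM (version 1.2.3 in the submitters' processing notes, another in the methods), from which the authors took a count for each Ensembl gene, and the whole-number counts were deposited unnormalized. The Ensembl release and strand setting are not given in the sources used here. GENCODE v44 lifted to GRCh37 named 55501 of 57736 identifiers. Counts were scaled by TMM in edgeR 4.0.16 (R 4.3.3), and genes whose reads in the libraries summed to at least 10 were called at a fold change above 3. A count of 0 was set to 3 reads, and genes with at most 3 reads in both libraries were given no fold change. Exact 95% intervals came from scipy 1.17.1 and cover counting error only. With 1 library per group edgeR cannot estimate the spread for its quasi-likelihood test, so no P value is given. The steps were tested on simulated data with Poisson noise only, in which 200 of 200 genes changed 8-fold were called in the right direction. The changed genes were drawn from those with a mean of at least 50 reads per library, so recovery at lower counts was not tested. Of the 18625 genes with enough reads, 158 unchanged genes were also called. Levels per length used the union of annotated exons.

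The markers and lists were chosen with earlier results of these data known. The genes named were the 10 markers, CARM1, in each list of related genes those past 3-fold with at least 50 reads (at most 6, otherwise the gene with most reads), and the nearest protein-coding genes with at least 10 reads. Every other gene named, including those of the cell type marker lists, was chosen after its values were seen. Alternatives were other scalings (library size, upper quartile, DESeq2 1.42.0 size factors), minimums of 1 or 50 reads, a 2-fold limit, a call on the whole interval, a prior count of 2, the longest transcript as length, and edgeR's exact test with an assumed coefficient of variation of 0.12 or 0.4 and an FDR under 0.05. UPK3BL, ANXA8 and PECAM1 were not matched. ChIP-seq data were not analysed here.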

Additional observations from a re-analysis of the deposited data

How the results depend on the processing

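MSLN, FOLR1 and CALB2 were higher in CARM1 KO cells past 3-fold under each of the 3 other scalings, each minimum of reads and a prior count of 2. When the whole counting interval had to lie past 3-fold, 2 markers, MSLN and FOLR1, were called. At an assumed coefficient of variation of 0.4, 0 markers, 5 related genes higher, and 532 higher and 894 lower genes of the whole table were called, which follows from the wider spread that edgeR's exact test assumes. With a minimum of 1 read, 1 marker, WT1, was lower. With at least 50 reads, 7 related genes and 1248 genes of the whole table were lower. A 2-fold limit called 3591 higher and 3568 lower genes, and 4 markers, with MUC1 added. The whole interval lay past 3-fold for 1264 higher and 1245 lower genes. With the longest transcript as length, the levels were 0.0810 RPKM for WT1 in parental cells, and 15.3 for MSLN and 6.19 for FOLR1 in CARM1 KO cells. No paired analysis was possible because each condition has 1 library, and leaving out a library would leave nothing to compare. Depth limits the markers under 10 reads.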

Other observations

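Among the neighbours of WT1, OVGP1 and UPK3B, several genes differed past 3-fold, and those given here were picked after their values were seen. PIFO and POMZP3 are also the nearest genes with enough reads on their side of the marker. PAX6, the eye and pancreas homeobox factor that lies 569812 bp from WT1, had 27 parental reads and 133 CARM1 KO reads, a 4.77-fold higher level (95% interval 3.14 to 7.51). DENND2D, 209784 bp from OVGP1, had 37 and 218 reads and was 5.71-fold higher (95% interval 4.01 to 8.32). PIFO, the nearest gene with enough reads before OVGP1 and a gene of primary cilia, had 25 parental reads and 0 CARM1 KO reads, which against 3 reads is an 8.61-fold lower level, with an exact interval that began at 6.50. On chromosome 7 beside UPK3B, ZP3, a zona pellucida glycoprotein, had 26 and 124 reads and POMZP3, a fusion gene that contains part of ZP3, had 164 and 21 reads. ZP3 and POMZP3 share sequence, so the division of reads between them is uncertain.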
